A study of Mus musculus with 24 samples.

Results

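Chromatin-modifying enzymes were followed in the prefrontal cortex (PFC) of control mice and of mice with a passive (PS) or active (AS) coping strategy under chronic social stress, given saline or the synthetic glucocorticoid dexamethasone (DEX). The enzymes were taken by gene symbol alone: histone deacetylases (Hdac and a number), sirtuins (Sirt1 and Sirt3 to Sirt7), the numbered lysine demethylases (Kdm), the Kmt2, Kmt5 and Setd methyltransferases, the numbered lysine acetyltransferases (Kat), the DNA methyltransferases Dnmt1 and Dnmt3 and the Tet dioxygenases. This rule found 60 of the 14074 genes in the table. They were 4 class I deacetylases, 4 of class IIa, 3 of classes IIb and IV, 6 sirtuins, 7 acetyltransferases, 16 lysine methyltransferases, 16 demethylases, 2 DNA methyltransferases (Dnmt1 and Dnmt3a) and 2 Tet enzymes (Tet2 and Tet3). Dnmt3b, Dnmt3l and Tet1 were not analysed here. In brief, DEX lowered 6 of the 60 genes (Hdac9, Kdm2b, Hdac1, Hdac7, Dnmt3a and Hdac6) and raised 1 (Kdm3a) when the control, PS and AS responses were averaged, each by a small amount. These made up 11.7% of the enzyme genes, whereas 15.5% of all genes were called. No enzyme gene passed the threshold for chronic stress itself in the main fit of all 24 libraries, which called 1.51% of all genes in PS and 0.156% in AS mice. After a correction for exon length and GC content 1 passed, Kdm5a, which was higher in PS mice (1.61% of all genes were called).

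All 24 animals were male C57BL/6 mice aged 10 to 12 weeks, with 1 RNA-seq library per mouse and 4 mice in each of 6 groups. The stressed mice had met aggressive CD1 males for 30 days and were sorted into PS and AS by clustering of how they behaved in close contact outside attacks, with animals of extreme behaviour set aside, so these groups were not assigned at random. The controls were not defeated and were kept singly before the experiment. Saline or 2 mg/kg DEX was injected 6 h before the tissue was taken, giving control saline, control DEX, PS saline, PS DEX, AS saline and AS DEX. The PFC was cut as a block that also held secondary motor, anterior cingulate and orbital cortex, so every value is an average over many cell types, in which fewer cells of a type and less RNA per cell cannot be told apart.

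DNA in the nucleus is wound on histones, and chemical marks on histone tails and on cytosine set how readily a gene is read. Acetyltransferases add acetyl groups to lysine and generally open chromatin, while deacetylases and sirtuins remove them. Methyltransferases and demethylases set methyl groups on lysine that mark active or silent genes, DNA methyltransferases methylate cytosine in CpG dinucleotides, and Tet enzymes oxidise that mark. In neurons class IIa deacetylases move between nucleus and cytoplasm with activity, and the ligand-bound glucocorticoid receptor works with several of these enzymes at its target genes.

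The promoters of 4 genes that passed the threshold for DEX are printed to show sequence at annotated starts of responding genes. They are taken at the outermost RefSeq start of each gene, and at both RefSeq starts for Hdac9. For Dnmt3a this lies inside the gene as annotated by GENCODE, which begins at chr12:3806007. The stretches are RefSeq windows on GRCm38.p6, cut to the bases before the start that lie in no annotated exon. They are written 5' to 3' on the gene's strand. Capitals mark CG dinucleotides and the motif AGAACA, or its reverse complement TGTTCT. This motif is only 1 arm of the inverted repeat that the glucocorticoid receptor binds. Hdac9 has 2 annotated starts, the first with 0 CG dinucleotides and the second with 2 in 250 bases, and each window holds 1 copy of the motif.
Hdac9 outer start (chr12:34917096-34917345, minus strand): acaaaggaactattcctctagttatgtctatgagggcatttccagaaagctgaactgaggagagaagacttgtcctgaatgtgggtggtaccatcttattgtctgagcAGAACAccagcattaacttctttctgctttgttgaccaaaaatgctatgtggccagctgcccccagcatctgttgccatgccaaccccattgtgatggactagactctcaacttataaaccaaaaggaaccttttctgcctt
Hdac9 inner start (chr12:34528890-34529139, minus strand): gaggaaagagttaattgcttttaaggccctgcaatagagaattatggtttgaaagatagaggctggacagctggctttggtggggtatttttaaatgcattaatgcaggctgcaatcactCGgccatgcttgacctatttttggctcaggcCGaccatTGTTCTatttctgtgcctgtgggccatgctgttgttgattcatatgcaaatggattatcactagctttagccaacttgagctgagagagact
Hdac7 (chr15:97844503-97844752, minus strand): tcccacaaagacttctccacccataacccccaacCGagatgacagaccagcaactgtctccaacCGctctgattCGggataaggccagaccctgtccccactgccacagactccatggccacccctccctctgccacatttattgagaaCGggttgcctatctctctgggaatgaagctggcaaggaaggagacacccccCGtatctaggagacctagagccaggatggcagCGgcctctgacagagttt
Dnmt3a (chr12:3806730-3806979, plus strand): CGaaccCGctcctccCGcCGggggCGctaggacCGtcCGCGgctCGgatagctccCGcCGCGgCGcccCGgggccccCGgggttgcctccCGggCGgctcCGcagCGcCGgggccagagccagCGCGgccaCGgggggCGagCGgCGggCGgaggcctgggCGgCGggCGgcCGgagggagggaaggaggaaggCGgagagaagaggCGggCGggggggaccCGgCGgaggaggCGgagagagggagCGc
Kdm3a (chr6:71632991-71633167, minus strand): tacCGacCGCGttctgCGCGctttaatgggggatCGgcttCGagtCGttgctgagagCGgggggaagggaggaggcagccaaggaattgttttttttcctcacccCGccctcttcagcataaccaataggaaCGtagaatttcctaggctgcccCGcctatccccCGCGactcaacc

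The Dnmt3a window held 38 CG dinucleotides in 250 bases and the Kdm3a window 14 in 177 bases, against 6 in 250 bases for Hdac7, and none of these 3 printed stretches held the motif. Other starts of the same genes differed: over windows of 300 bases Hdac7 had 6, 35, 31 and 5 CG dinucleotides at its 4 starts, Kdm3a 24, 40 and 0 at 3, Dnmt3a 46, 47 and 18 at 3 and Hdac9 0 and 3 at 2, and which start is used in these animals was not tested. RefSeq windows of 300 bases were matched for 48 of the 60 enzyme genes (72 windows), and their median was 22 CG dinucleotides. The median over all 32851 RefSeq windows was 7. That set was not limited to genes measured in these libraries. Neither its median nor its motif shares below are therefore a comparison with expressed genes. The glucocorticoid response element, an inverted repeat searched on both strands in 3 forms from strict to loose, was in 0 of the 72 windows and in 0.0487%, 0.0578% and 0.475% of all windows. The shorter AGAACA, which lies within the strict form, was in 11 of 72 windows from 10 genes (15.3%) and in 19.0% of all windows. A match here describes these letters in this window and is not a site.

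Depth ran from 21121869 to 59439645 reads on genes per library. Its median was 34242532 in AS saline and 37876626 in AS DEX, and between 22869703 (control saline) and 24187702 (PS DEX) in the other groups. Comparisons of AS mice with control or PS mice are thus not balanced for depth. Every enzyme gene had at least 78 reads in every library and a mean of at least 100 normalized counts, where a normalized count is a read count divided by a size factor of its library. The DEX labels were checked on genes under direct receptor control. Fkbp5, a co-chaperone that dampens the receptor, had 3820.1 ± 316 normalized counts in control DEX (SD, n = 4) and 796 ± 61.6 in control saline, and its mean log2 difference over the 3 phenotypes was 2.06 (SE 0.06). Tsc22d3 (1.06) and Sgk1 (0.76) rose as well, and Nr3c1, the receptor gene itself, fell by 0.39 on the same scale, each with an adjusted p under the threshold used below. Defining markers of pyramidal and GABAergic neurons, astrocytes, oligodendrocytes and microglia were present in every group, with no marker of the table at 0 throughout.

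Several libraries stood apart in a way that touches these genes. The enzyme transcripts are long, with a median exon length of 6775 bases against 4553 for the 12149 protein-coding genes of the table, and 47 of the 60 exceeded that median. In AS DEX mouse 60 and AS saline mouse 44 the enzyme genes deviated from their own 24-library mean the lower the longer the gene, with Spearman's rho of -0.84 and -0.77 over the 60 genes. The 20 longest enzyme genes had a median log2 deviation of -0.35 in AS DEX mouse 60 and -0.32 in AS saline mouse 44, while the 20 shortest had 0.12 and 0.08. PS DEX mouse 34 (rho -0.62, the 20 longest at -0.20) and control DEX mouse 101 (rho -0.55, the 20 longest at -0.11) had the same slope in smaller size, so each DEX group held 1 such library and the saline groups 1 in all. The opposite slope was largest in control saline mouse 109 (rho 0.66). It was also found in control DEX mice 112 (0.63), 122 (0.61) and 108 (0.47), PS DEX mouse 52 (0.58) and AS DEX mouse 42 (0.47). The other control saline libraries had rho of 0.22 (mouse 106), 0.19 (mouse 107) and 0.05 (mouse 117), so these slopes were not balanced between control saline and control DEX. These genes share each library, so the coefficients describe libraries and carry no p. Results are therefore also given after the part of each library that follows exon length and GC content was removed, without the AS libraries 44 and 60, and without all 4.

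**Figure D1:**
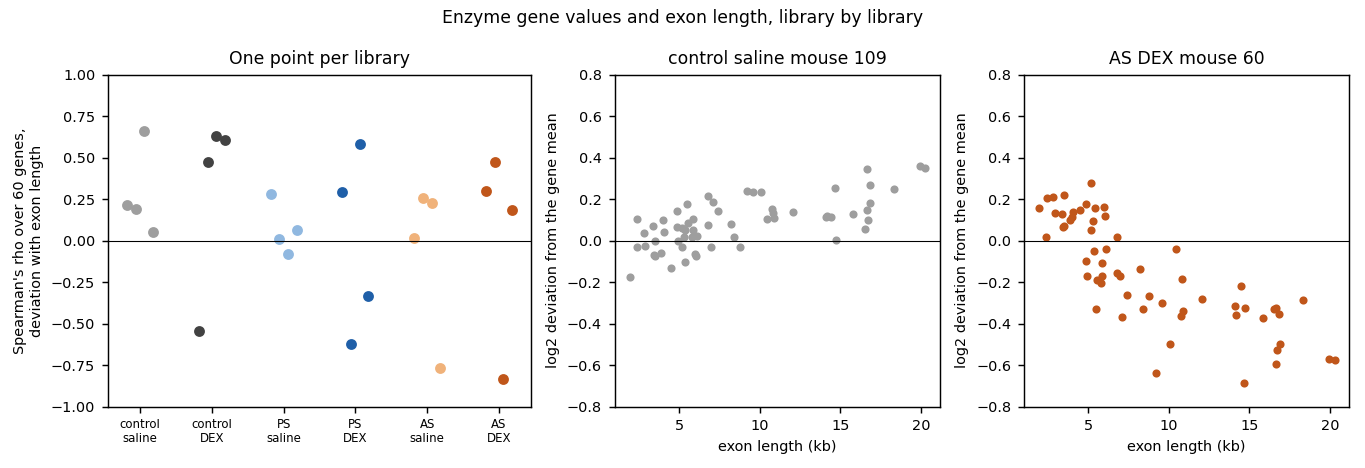
Left, Spearman's rho (y axis, no unit) between exon length and log2 deviation over the 60 enzyme genes, with 1 point per library in the 6 groups; middle and right, log2 deviation from the gene's 24-library mean (y axis) against exon length in kb (x axis) in control saline mouse 109 and AS DEX mouse 60, with 1 point per gene. Long enzyme genes sit above 0 in the first library (rho 0.66) and below 0 in the second (rho -0.84).

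Levels were compared between genes per kb of exon. The enzymes were of middling abundance: their median was 171 normalized counts per kb, compared with 186 for all protein-coding genes, and 27 of 60 lay above the latter. Hdac11, the class IV deacylase, was the highest at 1355 ± 76.7 normalized counts per kb (SD over 24 libraries) and the only one over 1000. It was followed by Setd3, an actin histidine methyltransferase, at 719, Kat2a, the Gcn5 acetyltransferase of SAGA, at 656, Hdac3 at 511, Hdac2 at 461 and Hdac5 at 449. The ranges over libraries of Hdac3, Hdac2 and Hdac5 overlapped, whereas Hdac11 did not overlap any other member.

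At the low end were Kdm1b, a flavin-dependent demethylase, at 46.2 normalized counts per kb, the mitochondrial Sirt5 at 46.7, Hdac8 at 47.3, Kdm2b, which tethers a Polycomb complex to CpG islands, at 52.3, and Kdm8 at 53.3. By class, the median level per kb was highest for class I deacetylases (323) and lowest for the Tet enzymes (94.7), with methyltransferases at 214, acetyltransferases at 210, sirtuins at 196, class IIa deacetylases at 148 and demethylases at 125. The spread within groups was narrow, with a coefficient of variation from 4.0% (Kdm1a) to 16.6% (Kdm6b) and a median of 9.5%.

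**Figure D2:**
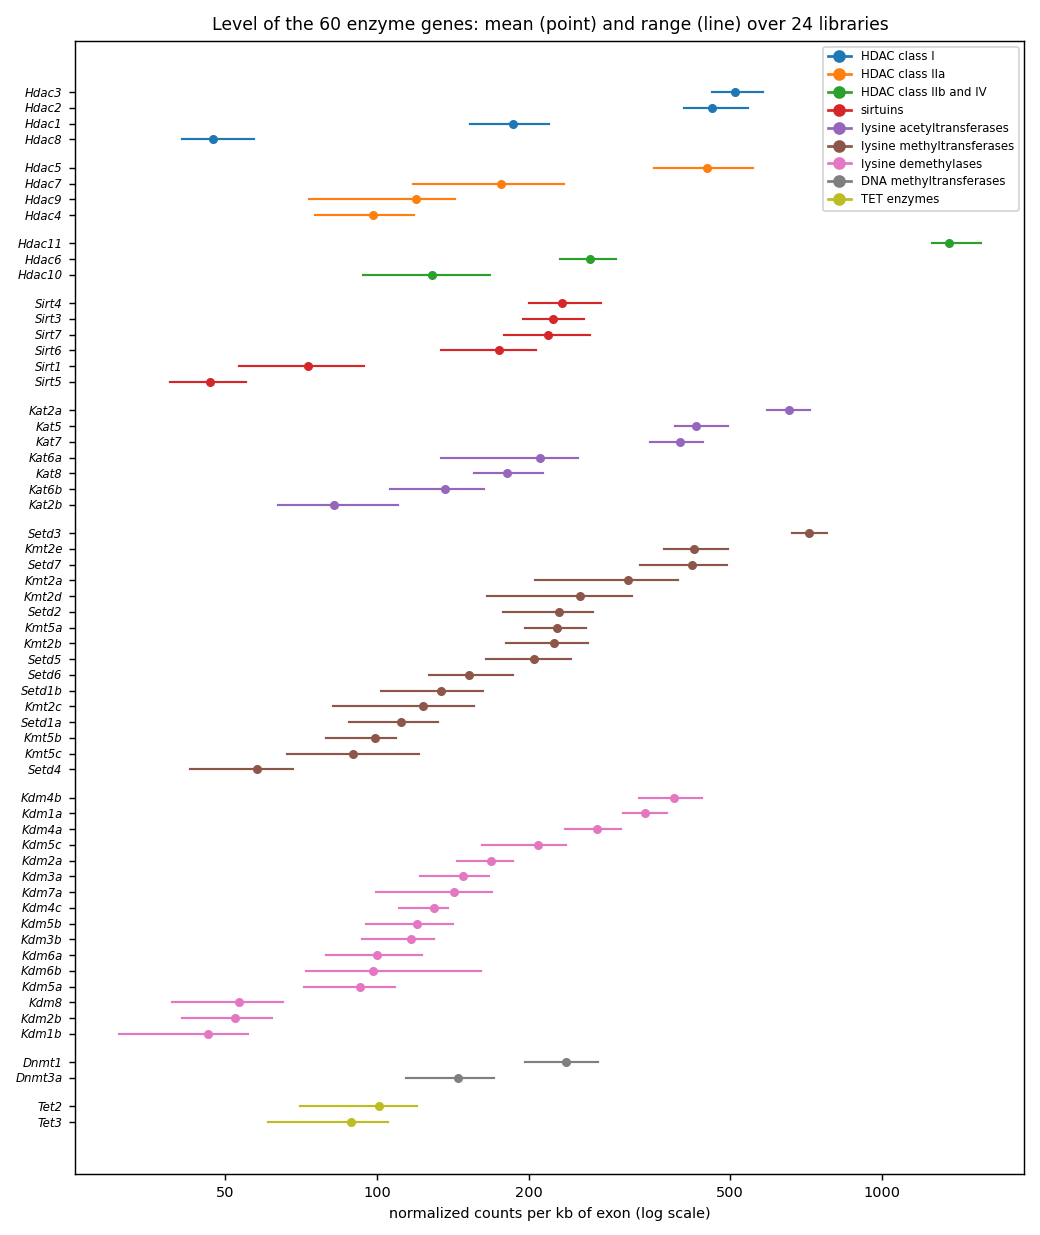
Level of each of the 60 enzyme genes in normalized counts per kb of exon (x axis, log scale), grouped by class; the point is the mean and the line the range over 24 libraries. Hdac11 stands alone at 1355, and Kdm1b, Sirt5, Hdac8, Kdm2b and Kdm8 lie between 46.2 and 53.3.

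The question of what DEX does to these genes irrespective of stress was addressed with the mean of the control, PS and AS responses. DEX changed 7 of the 60 enzyme genes (11.7%), 6 of them lower and 1 higher, by limma across all 14074 genes at a Benjamini-Hochberg adjusted p under 0.1. Over all genes 15.5% were called, with 8.01% lower and 7.46% higher, so the share among the enzymes was not above that of the table. The median log2 difference of the 60 was -0.02 and that of all genes 0.00. The 95% interval of each of the 60 stayed within 0.5 on the log2 scale in both directions, the farthest bound being 0.45.

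**Figure D3:**
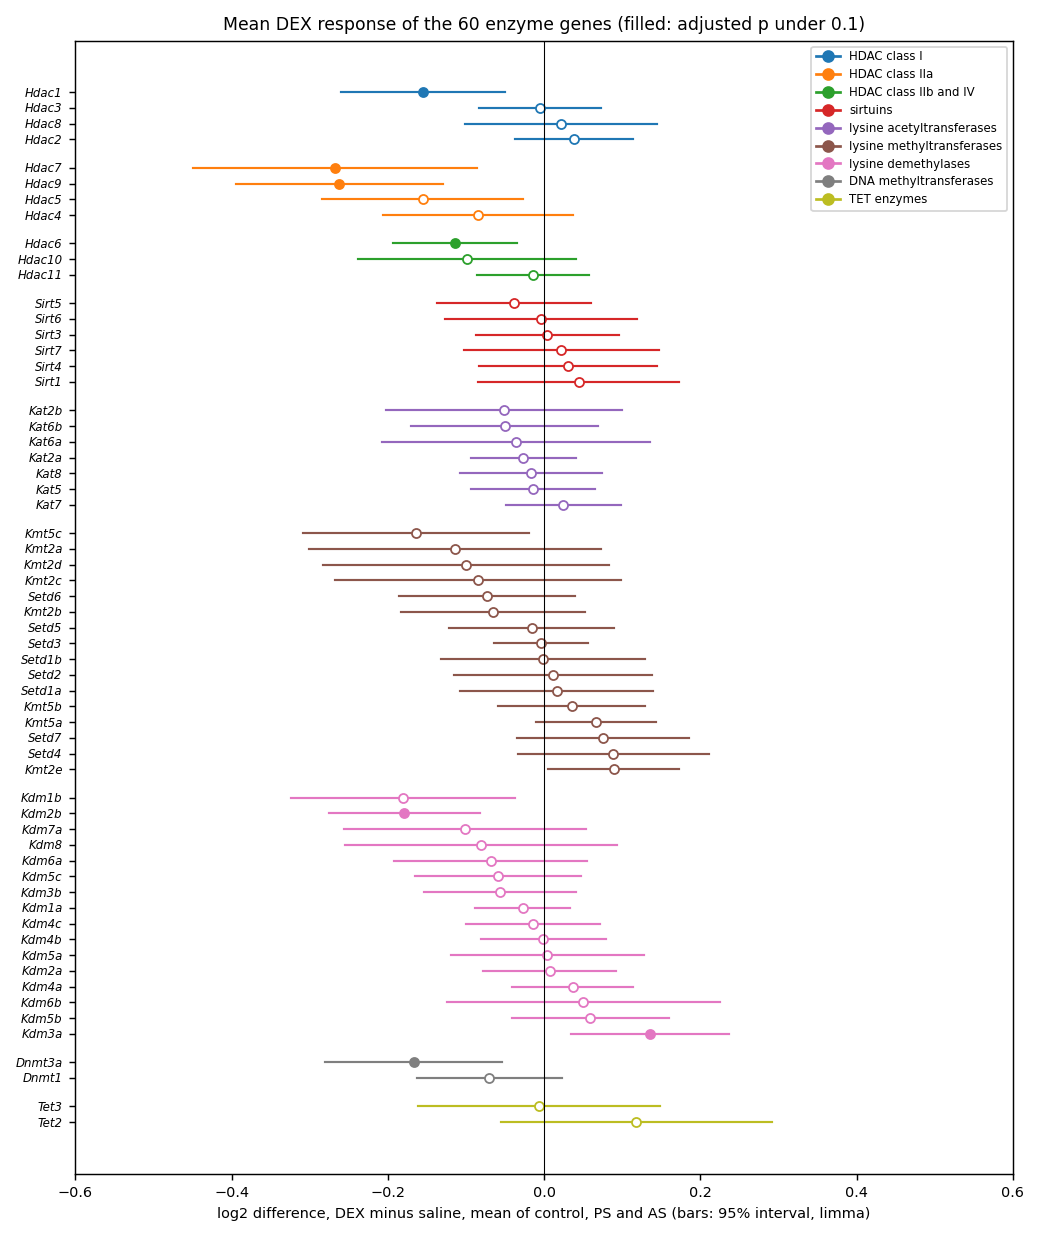
Log2 difference between DEX and saline, averaged over control, PS and AS (x axis), for each of the 60 enzyme genes by class; bars are 95% intervals from limma and filled points have an adjusted p under 0.1. The 6 filled points left of 0 are Hdac1, Hdac7, Hdac9, Hdac6, Kdm2b and Dnmt3a, and the 1 on the right is Kdm3a.

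Deacetylases made up 4 of the 6 genes that fell. Hdac9, a class IIa enzyme that binds MEF2 factors, had 1934, 2092, 2060 and 1997 normalized counts in control saline and 1472, 1864, 1776 and 1707 in control DEX. It had 2072, 1748, 1811 and 1791 in PS saline and 1567, 1573, 1691 and 1442 in PS DEX. In AS saline the values were 1921, 1996, 1867 and 1531, and in AS DEX 1596, 1722, 1075 and 1639. DEX and saline did not overlap in control or in PS animals, and in AS they overlapped through AS saline mouse 44, 1 of the libraries low in long genes (Hdac9 has 14665 bases of exon). After the length and GC correction the Hdac9 groups overlapped in PS mice, and did not overlap in control or AS mice. The mean response was -0.26 (SE 0.06, limma adjusted p = 0.0065), which corresponds to a fall by 16.6%. It was -0.27 (SE 0.04) after the length and GC correction and -0.24 (SE 0.04) without AS saline mouse 44 and AS DEX mouse 60.

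Hdac7, the other class IIa gene that fell, is known for its role in blood vessel endothelium and in thymocytes. It had 1008, 1405, 1356 and 1343 normalized counts in control saline and 1563, 1185, 1130 and 1161 in control DEX. The PS values were 1064, 1154, 1323 and 1394 with saline and 1147, 796, 926 and 1261 with DEX. The AS values were 1555, 1131, 1583 and 1205 with saline and 983, 796, 1182 and 877 with DEX. The groups overlapped in each phenotype, and in AS 3 of 4 DEX libraries lay below every saline library. The mean response was -0.27 (SE 0.09, limma adjusted p = 0.0471), composed of -0.02 in control, -0.27 in PS and -0.51 in AS mice.

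Endothelial and mural markers were read beside Hdac7. Of the 7 endothelial markers, Flt1, Tek and Cdh5 fell in the mean DEX response, none was called in control mice, Tek fell in PS mice and Pecam1, Flt1, Tek and Cdh5 in AS mice. The list's median log2 difference was 0.17 in control, -0.35 in PS and -0.69 in AS mice. Of the 7 mural markers, Acta2 fell in the mean response, none was called in control or PS mice, and Rgs5, Acta2 and Tagln fell in AS mice, with a median log2 difference of 0.42 in control, -0.26 in PS and -0.72 in AS mice. The summed endothelial level ran from 5173 to 7070 normalized counts in control saline, 5531 to 8484 in control DEX, 4802 to 6918 in PS saline, 3038 to 6800 in PS DEX, 4580 to 7586 in AS saline and 3334 to 5220 in AS DEX, with no marker at 0. Control DEX mouse 101 had the highest endothelial sum (8484) and the highest control value of Hdac7 (1563), while control saline mouse 106 had the lowest control value of both (5173 and 1008). Of the 7 microglial markers, Cx3cr1, P2ry12, Aif1 and Itgam fell in the mean response. Their list's summed level overlapped in control mice, at 7845 to 8924 normalized counts with saline and 7791 to 9917 with DEX. It was lower with DEX without overlap in PS mice (8767 to 9418 and 7482 to 7798) and AS mice (9454 to 10175 and 7600 to 8645). Not every marker list fell. The summed striatal markers (4 of 6 in the table) were higher with DEX and did not overlap saline in any phenotype. They ran from 3280 to 4008 in control saline and 4189 to 4998 in control DEX. In PS mice they ran from 3121 to 3824 and 3930 to 4481, and in AS mice from 3386 to 3961 and 4364 to 5839. The part of these markers in Hdac7 and in the other genes that fell was not tested.

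Hdac1, a class I enzyme of the Sin3, NuRD and CoREST corepressors, fell by 0.16 on the log2 scale (SE 0.05, limma adjusted p = 0.0468). Its values were 659, 671, 608 and 723 normalized counts in control saline, 709, 560, 558 and 599 in control DEX, 595, 626, 719 and 652 in PS saline and 637, 636, 526 and 634 in PS DEX. In AS mice they were 755, 692, 749 and 660 with saline and 582, 555, 669 and 622 with DEX. The groups overlapped in each phenotype, in AS mice only by the highest DEX library. After the length and GC correction Hdac1 no longer overlapped in AS mice (6.35% of all genes were lower without overlap). Its close relative Hdac2, which occupies the same complexes, had the highest mean response of class I at 0.04 (SE 0.04, adjusted p = 0.64).

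Hdac6, a mainly cytoplasmic deacetylase of tubulin, fell by 0.11 (SE 0.04, limma adjusted p = 0.0540). Control saline held 1631, 1691, 1642 and 1584 normalized counts and control DEX 1614, 1536, 1523 and 1538. PS saline held 1470, 1511, 1633 and 1730 and PS DEX 1550, 1347, 1384 and 1575, while AS saline held 1725, 1540, 1579 and 1396 and AS DEX 1456, 1339, 1356 and 1462. All 3 pairs of groups overlapped, and the call was lost when PS saline mouse 68 (adjusted p = 0.105) or AS saline mouse 8 (adjusted p = 0.108) was left out. After the length and GC correction the Hdac6 groups overlapped in PS mice. They did not overlap in control mice (5.31% of all genes were lower without overlap) or AS mice (6.35%). Hdac11 had the highest value of classes IIb and IV (-0.01, SE 0.03, adjusted p = 0.89).

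Kdm2b, whose CxxC domain binds unmethylated CpG islands and which removes methyl groups from histone H3, had 625, 652, 611 and 623 normalized counts in control saline and 530, 530, 489 and 610 in control DEX. It had 605, 568, 583 and 526 in PS saline and 567, 494, 520 and 539 in PS DEX, and 673, 588, 611 and 580 in AS saline against 565, 541, 447 and 575 in AS DEX. DEX and saline did not overlap in control or AS mice and overlapped in PS mice. After the length and GC correction they overlapped in control and PS mice and not in AS mice. The mean response was -0.18 (SE 0.05, limma adjusted p = 0.0108), a fall by 11.7%.

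Dnmt3a, the de novo DNA methyltransferase of postmitotic neurons, fell by 0.17 (SE 0.06, limma adjusted p = 0.0480). Its normalized counts were 2374, 2529, 2645 and 2830 in control saline, 2300, 2303, 2332 and 2419 in control DEX, 2602, 2466, 2405 and 2808 in PS saline and 2472, 1903, 2547 and 2441 in PS DEX. AS saline gave 2675, 2633, 2565 and 1959 and AS DEX 2356, 2158, 1905 and 2028. The lone low AS saline value came from mouse 44, and Dnmt3a has 16642 bases of exon. With the length and GC correction the response was -0.16 (SE 0.04, adjusted p = 0.0044) and the AS groups no longer overlapped. Dnmt1, the maintenance enzyme, had a mean response of -0.07 (SE 0.04, adjusted p = 0.42).

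Kdm3a, a demethylase of a silencing mark on histone H3 that acts as a nuclear receptor coactivator, was the gene that rose, by 0.14 (SE 0.05, limma adjusted p = 0.0750), or 9.86%. Its values were 1002, 1153, 1281 and 1114 normalized counts in control saline and 1268, 1308, 1273 and 1337 in control DEX, 1172, 1124, 1173 and 1240 in PS saline and 1301, 1035, 1369 and 1318 in PS DEX. AS saline held 1144, 1133, 1287 and 1096 and AS DEX 1296, 1351, 1103 and 1350. In PS and AS mice 3 of 4 DEX libraries lay above every saline library, the exceptions being PS DEX mouse 34 and AS DEX mouse 60. The call was lost in 16 of 34 alternatives, each a fit with 1 library left out, with adjusted p up to 0.142.

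**Figure D4:**
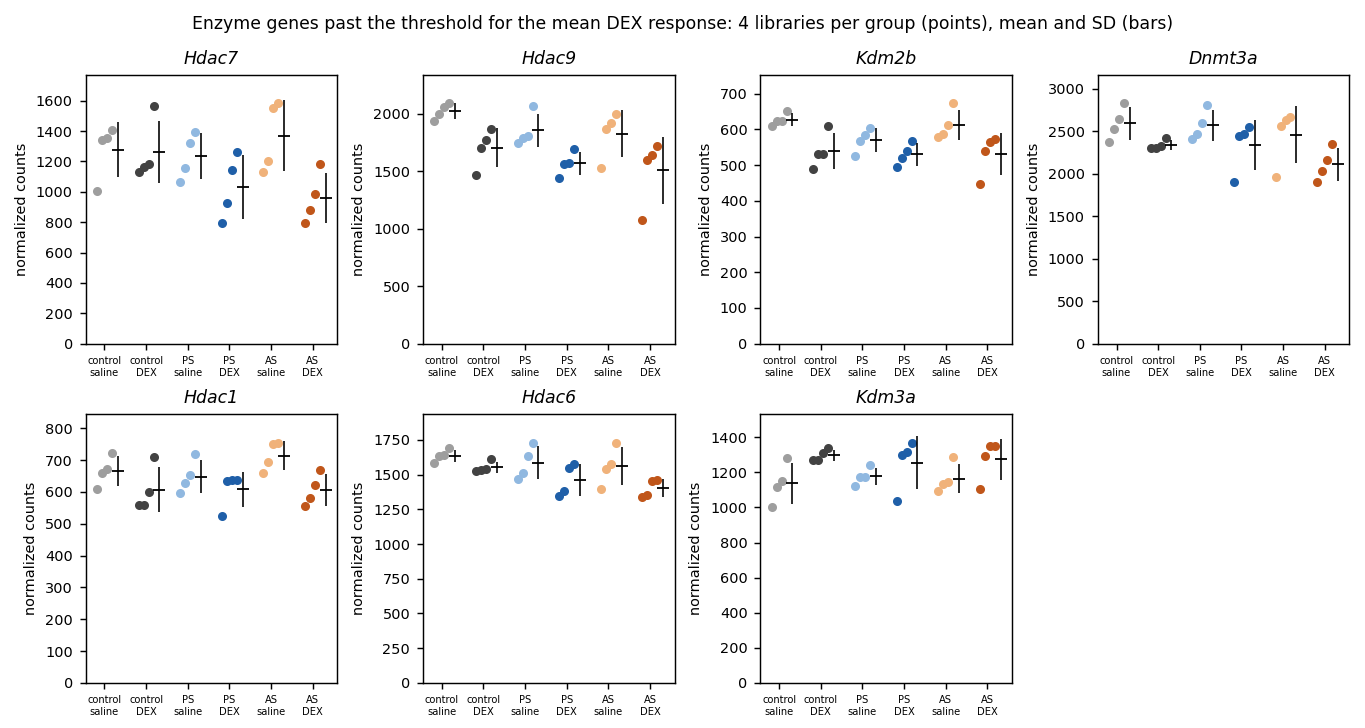
Normalized counts (y axes, from 0) of the 7 enzyme genes past the threshold in the 6 groups (x axes); points are the 4 libraries of a group in order of value and bars are the mean and SD. In these counts, before the length and GC correction, Hdac9 with DEX lies below saline in control and PS mice with no overlap. AS DEX mouse 60 is the lowest Hdac9 value at 1075.

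Just outside the threshold were Kdm1b (-0.18, SE 0.07, adjusted p = 0.1024) and the class IIa deacetylase Hdac5 (-0.16, SE 0.06, adjusted p = 0.1196). All 4 class IIa genes had negative differences, from -0.27 (Hdac7) to -0.08 (Hdac4, adjusted p = 0.47). None of the 6 sirtuins passed, the extremes being Sirt1 (0.04, SE 0.06) and Sirt5 (-0.04, SE 0.05). None of the 7 acetyltransferases passed either, from Kat2b (-0.05, SE 0.07) to Kat7 (0.02, SE 0.04).

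Among the 16 methyltransferases 0 passed by limma, and 2 had an unadjusted p under 0.05. The lowest was Kmt5c, which methylates histone H4, at -0.16 (SE 0.07, adjusted p = 0.15), and the highest Kmt2e, a divergent MLL relative, at 0.09 (SE 0.04, adjusted p = 0.19). Of the 16 demethylases, Kdm2b and Kdm3a passed in opposite directions. Tet2 had a difference of 0.12 (SE 0.08, 95% interval -0.06 to 0.29, adjusted p = 0.48) and Tet3 of -0.01 (SE 0.08, adjusted p = 0.98).

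Within single phenotypes 1 enzyme gene was called. In control mice limma called 0 of 60 (6.49% of all genes), with 6 at an unadjusted p under 0.05 (15.3% of all genes), namely Kdm2b, Hdac9, Kdm1a, Dnmt1, Kdm3a and Sirt5, and edgeR and DESeq2 also called 0. In PS mice limma called 0 (5.36% of all genes), with Kdm1b, Hdac9 and Kdm6a at an unadjusted p under 0.05 (13.6% of all genes), and edgeR and DESeq2 called 0. In AS mice limma called 1 of 60 (8.77% of all genes), with 11 at an unadjusted p under 0.05 (18.2% of all genes). The called gene was Hdac7 (-0.51, SE 0.15, adjusted p = 0.0479), a fall by 29.8%. With the length and GC correction it was -0.42 (adjusted p = 0.0848), and it lost its call without AS saline mouse 8 or 40 or AS DEX mouse 42 or 72 (adjusted p up to 0.179). Hdac7 transcripts hold 59.7% GC. Spearman's rho of deviation with GC content over the 60 genes was 0.66 in AS saline mouse 8 and -0.11 in AS saline mouse 40. In AS DEX it was -0.77 in mouse 42 and -0.36 in mouse 72. The part of GC content alone in this call was not tested.

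The number called in AS mice moved with individual animals. It was 9 without AS saline mouse 44 (14.1% of all genes) and 7 without AS DEX mouse 60 (11.4%), and it was 0 without AS saline mouse 8 (4.78%) or AS DEX mouse 72 (985 of 14074 genes), so the share of the whole table moved in the same direction. With the length and GC correction 6 genes were called in control mice (10.2% of all genes), 1 in PS mice (7.71%) and 5 in AS mice (12.4%), with Hdac9 in all 3, and 10 for the mean response (20.1%). Without AS saline mouse 44 and AS DEX mouse 60 the mean response also had 10 (18.2%). Without all 4 libraries low in long genes it had 15 of 60 (25%, beside 24.6% of all genes), 9 lower and 6 higher, with all 7 genes above among them. Control DEX lay below control saline with no overlap for Hdac9, Kdm2b, Dnmt1, Kdm1a and Kdm5c (4.32% of all genes), PS DEX below PS saline for Hdac9 (4.57%) and AS DEX below AS saline for Kdm2b (5.02%). In the other direction Sirt7 was higher in control DEX (5.81% of all genes), Kdm4b was higher in PS DEX (5.54%) and 0 enzyme genes were higher in AS DEX (563 of 14074 genes). These lists name genes after their values were seen.

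Whether stress altered the DEX response was asked with the interaction terms. No enzyme gene passed by limma, edgeR or DESeq2 for PS against control (0% of all genes by limma), AS against control (0.348%) or AS against PS (0%). At an unadjusted p under 0.05 there were 4, 3 and 0 enzyme genes, beside 9.98%, 13.5% and 2.44% of all genes. The largest value for PS was Kdm1b at -0.37 (SE 0.17, adjusted p = 0.47): its means were 269 and 273 normalized counts in control saline and DEX, and 273 and 214 in PS saline and DEX. For AS it was Hdac7 at -0.49 (SE 0.22, 95% interval -0.93 to -0.04, adjusted p = 0.32). Between AS and PS it was Hdac10, a polyamine deacetylase, at -0.28 (SE 0.17, adjusted p = 0.9997). The intervals stayed within 0.5 for 49, 46 and 53 of the 60 genes, and passed it for the rest.

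Chronic stress was compared in the saline groups. PS mice had 0 of 60 enzyme genes past the threshold by limma, edgeR or DESeq2 (1.51% of all genes by limma), and 10 with an unadjusted p under 0.05 (16.7%, against 13.1% of all genes). AS mice had 0 (0.156% of all genes) and 5 with an unadjusted p under 0.05 (8.33%, against 11.0% of all genes). AS against PS gave 0 (0% of all genes) and 1 with an unadjusted p under 0.05, Kat2a (4.77% of all genes). The 95% intervals stayed within 0.5 for 56, 56 and 60 of the 60 genes, with the farthest bounds at 0.58, 0.54 and 0.46.

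No enzyme gene passed in this main fit, and most values lay below control. In PS mice 42 of 60 did (70%, against 49.4% of all genes), with a median log2 difference of -0.06 against 0.00 over all genes, and in AS mice 43 of 60 (71.7%, against 49.1%), with a median of -0.06 against 0.00. After the length and GC correction 40 of 60 lay below control in PS mice, with a median of -0.036 (-0.0074 over all genes), and 30 of 60 in AS mice, with a median of -0.0017 (-0.0024 over all genes). The corrected fit called 1 enzyme gene in PS mice, Kdm5a, which was higher (1.61% of all genes were called), and 0 in AS mice (0.277%). Both comparisons share the control saline group. In PS saline 12 of the 60 genes lay below control saline with no overlap (6.12% of all genes did): Dnmt1, Hdac4, Kat2a, Kat6a, Kdm2b, Kdm4a, Kdm4b, Kdm5b, Kdm5c, Kmt2d, Setd1b and Sirt5. Kdm6a was the 1 gene that lay above it (5.15% of all genes). After the length and GC correction 4 lay below (5.53% of all genes) and 3 above (4.14%), and Dnmt1 and Sirt5 were the genes of the 12 still among them. These genes are named for their counts, after their values were seen.

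The largest PS difference was that of Setd1b, a methyltransferase of histone H3 at active promoters. It had 1735, 1745, 1759 and 1956 normalized counts in control saline and 1537, 1438, 1429 and 1386 in PS saline, so the groups did not overlap. The log2 difference was -0.31 (SE 0.11, limma adjusted p = 0.20), -0.15 (SE 0.07) after the length and GC correction, and -0.31 with an adjusted p of 0.0447 without AS saline mouse 44 and AS DEX mouse 60, which enter through the shared estimate of spread. Without all 4 libraries low in long genes, none of which is in the PS saline or control saline group, its adjusted p was 0.0041 (SE 0.06). That fit called 8 of the 60 genes in PS mice (13.3%, beside 8.13% of all genes), with Dnmt1, Kat6a, Kat7, Kdm4a, Kdm5c, Kmt2d and Setd1b lower and Kdm5a higher, and 0 in AS mice (1.61% of all genes). The 4 libraries were chosen for their low values in these same genes, and libraries with the opposite slope were kept. The PS saline and control saline values were the same in this fit, while the estimate of spread was smaller. These calls are therefore no separate support for a stress effect.

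The largest AS difference was that of Setd6, a methyltransferase that modifies a NF-kappaB subunit and, at 1903 bases, has the shortest exons of the 60. It had 262, 285, 255 and 272 normalized counts in control saline and 308, 331, 318 and 354 in AS saline, again without overlap, and a difference of 0.29 (SE 0.09, adjusted p = 0.28). Kdm4a and Kdm5b lay below control saline in AS saline with no overlap (3.06% of all genes did), and Sirt7 was, with Setd6, the other that lay above it (3.45%). Between AS and PS the largest difference was Hdac10, at 487 ± 71.2 normalized counts in AS and 420 ± 34.7 in PS (n = 4 each, 0.20, SE 0.12, adjusted p = 0.93).

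An F test for any difference among the 6 groups called 2 of the 60 genes, Hdac9 (adjusted p = 0.0567) and Kdm2b (adjusted p = 0.0996), against 14.8% of all genes. The Kdm2b call was lost in 23 of 34 alternatives and that of Hdac9 in 2. Without AS saline mouse 44 it called 8 (18.9% of all genes), without AS DEX mouse 60 it called 5 (16.8%), and without control saline mouse 107 (11.5%) or 109 (12.7%) it called 0.

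**Figure D5:**
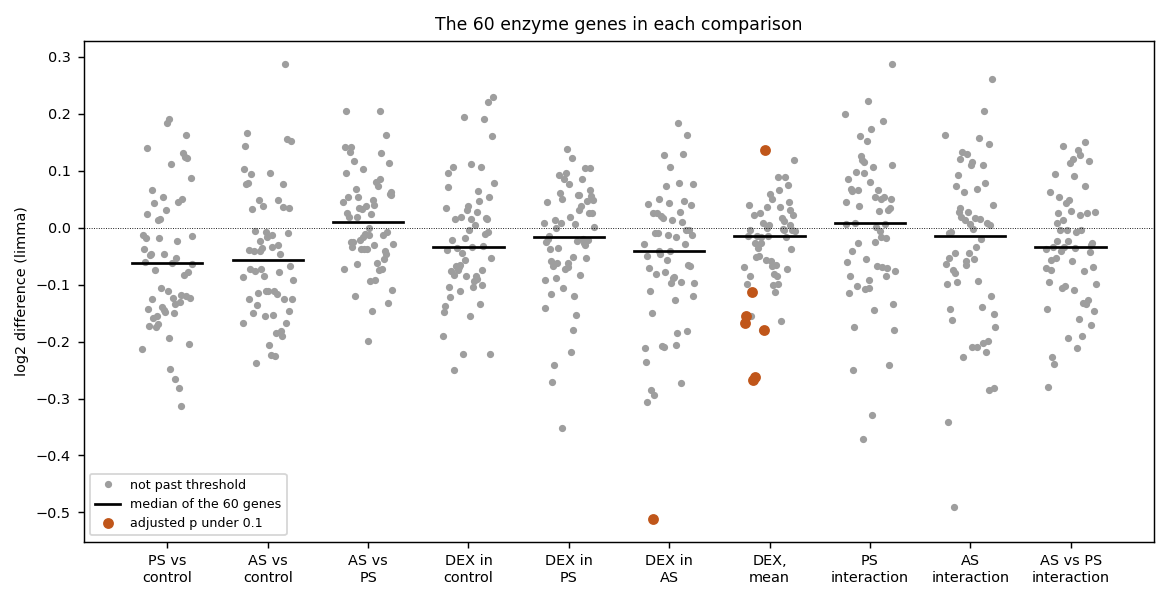
Log2 differences from limma (y axis) of the 60 enzyme genes in 10 comparisons (x axis); 1 point per gene, with larger coloured points for an adjusted p under 0.1 and a line at the median of the 60. Coloured points appear in the mean DEX response (7) and in DEX in AS mice (1), and the medians lie between -0.06 and 0.01.

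The partners of these enzymes were read from lists of 116 tested genes. In the mean DEX response 14 of the 116 were called (12.1%), 6 higher and 8 lower, beside 15.5% of all genes. Among 21 HDAC corepressor partners 4 were called, with Rcor2, a CoREST subunit, the largest fall (-0.29, SE 0.06, limma adjusted p = 0.00059) and Sap30, a Sin3 subunit, the largest rise (0.35, SE 0.10, adjusted p = 0.0274). Of 18 Polycomb genes 2 were called: Rnf2, the ubiquitin ligase of complex PRC1, rose by 0.35 (SE 0.05, adjusted p = 1.96e-05) and Pcgf2 fell by 0.20 (SE 0.06, adjusted p = 0.0353). Rnf2 had 723 ± 64.4 normalized counts in control saline and 1027 ± 51.9 in control DEX, 791 ± 105 and 868 ± 13.4 in PS, and 770 ± 49.3 and 1011 ± 108 in AS (n = 4 each).

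Of 26 methyltransferases outside the named families 6 were called, 3 in each direction, with Setdb2 highest (0.43, SE 0.09, adjusted p = 0.0016) and the arginine methyltransferase Prmt2 lowest (-0.16, SE 0.04, adjusted p = 0.0143). Of 9 other acetyltransferases Kat14 rose (0.20, SE 0.03, adjusted p = 0.00018), and of 7 other demethylases Riox2 fell (-0.16, SE 0.05, adjusted p = 0.0332). None of 11 KMT2 and SETD1 complex partners, 14 methyl-CpG readers and partners or 10 acetyl-lysine readers passed. With stress, 6 of the 116 were called in PS mice (5.17%, beside 1.51% of all genes), 5 lower and 1 higher, and 0 in AS mice. Among them, named after their values were seen, Men1, the menin subunit of KMT2 complexes, fell by 0.25 (SE 0.06, limma adjusted p = 0.0407) and the histone chaperone Rbbp4 rose by 0.19 (SE 0.05, adjusted p = 0.0715).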

How the data were processed

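Bulk RNA-seq of PFC from 24 mice was used, 1 library each. The authors trimmed reads with fastp 0.20.1, aligned them to mm10 (GRCm38) with HISAT2 2.2.1, counted GENCODE vM22 genes with featureCounts (Subread 2.0) and divided by DESeq2 1.36.0 size factors. The deposited signal values are these normalized counts. All values (100%) were whole multiples of 1 read within 0.01 read, so reads were recovered for depth and count models. The authors' own fold changes and p-values were not used.

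All 14074 genes were fitted with limma 3.58.1 (R 4.3.3) on log2(normalized count + 1), with 1 mean per group and a trend, and fold changes are on that scale, where low genes are understated. Calls are at a Benjamini-Hochberg adjusted p under 0.1 over all genes. Alternatives used edgeR 4.0.16, which called 2176 genes for the mean DEX response, and DESeq2 1.42.0. Scripts were tested on simulated data. Exon lengths and GC came from GENCODE vM21 on GRCm38, which may differ slightly from the counted annotation. Genes were named when called, highest or lowest in their class for the mean DEX response, or largest in a stress or interaction comparison, and partners when the largest rise or fall in a list. The enzymes and lists were chosen with earlier results of these data known. Some genes of the partner lists are not reported here by name.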

Additional observations from a re-analysis of the deposited data

Results flagged for a closer look

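In 138 sets of 4 values (23 named enzyme genes in 6 groups), the highest or lowest library was set against the others by Dixon's gap ratio at the 95% level, which chance exceeds in about 1 in 20 groups, and 9 sets exceeded it. Low values were Dnmt1 in PS saline mouse 28 (1558 normalized counts), Dnmt3a in PS DEX mouse 34 (1903) and in AS saline mouse 44 (1959), Hdac1 in PS DEX mouse 52 (526) and Hdac7 in control saline mouse 106 (1008). High values were Hdac11 in PS DEX mouse 34 (6056), Hdac6 in control DEX mouse 101 (1614), Hdac7 in control DEX mouse 101 (1563) and Setd1b in control saline mouse 117 (1956). PS DEX mouse 34 and AS saline mouse 44 were also low in long enzyme genes (Spearman's rho with exon length -0.62 and -0.77), and the part of this in the values was not tested.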

How the results depend on the processing

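No paired analysis was possible because mouse numbers do not recur between groups. The counts of enzyme genes called changed as follows (main count first). For PS against control with saline (0), it was 3 with only the groups compared (3.72% of all genes). For DEX in PS mice (0), it was 1 with only the groups compared (5.74% of all genes). For DEX in AS mice (1), it was 3 with quantile normalization (8.40% of all genes) and 4 with DESeq2 (12.2%). For any difference among the 6 groups (2), it was 1 with a pseudocount of 8 (14.8% of all genes), quantile normalization (14.3%), a library size covariate (11.6%) or edgeR (14.6%). With DESeq2 it was 6 (20.4%). The following were chosen after seeing the data. With the exon length and GC correction the counts were 1 (PS against control), 6 (DEX in control), 1 (DEX in PS), 5 (DEX in AS), 10 (mean DEX response, main 7) and 7 (any difference). Their shares of all genes were 1.61%, 10.2%, 7.71%, 12.4%, 20.1% and 21.0%. Without AS saline mouse 44 and AS DEX mouse 60 they were 3, 3, 2, 9, 10 and 10, beside 4.07%, 8.40%, 6.93%, 13.3%, 18.2% and 21.7% of all genes, and without these, PS DEX mouse 34 and control DEX mouse 101 they were 8, 1, 1, 12, 15 and 16, beside 8.13%, 7.84%, 7.01%, 18.6%, 24.6% and 26.7%. So the whole table's share also rose where these libraries were left out. The mean DEX count was 9 with DESeq2 (17.3% of all genes).

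Leaving out 1 library at a time gave 0 to 2 calls for DEX in control, 0 to 1 for DEX in PS, 0 to 9 for DEX in AS, 5 (without AS saline mouse 8) to 9 for the mean DEX response and 0 to 8 for any difference, and 0 for the 3 stress comparisons and 3 interactions. The shares of all genes in these fits were 4.34% to 7.33%, 3.62% to 6.19%, 4.78% to 14.1%, 13.8% to 17.7% and 11.5% to 18.9%. They reached 2.47% for a stress comparison and 4.87% for an interaction. Hdac9, Kdm2b, Hdac1, Hdac7 and Dnmt3a passed for the mean DEX response in all 34 alternatives, Hdac6 in all but 2 and Kdm3a in all but 16, and no called gene changed sign. Where a count moved, the cause was not tested. With 4 libraries per group, the median standard error was 0.0953 for a pair of groups and 0.135 for an interaction, and the largest stress difference, not called, was that of Setd1b in PS mice (-0.31, SE 0.11).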
